A study of Arabidopsis thaliana with 4 samples.

Results

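B-box (BBX) transcription factors carry 1 or 2 zinc-binding B-box domains near the start of the protein, and some also carry a CCT domain, named after CONSTANS, CONSTANS-LIKE and TOC1. In Arabidopsis they act in flowering time, the circadian clock and seedling de-etiolation, the change from growth in darkness to growth in light. Several work with or against the bZIP factor HY5 and are turned over through the ubiquitin ligase COP1. TCP4 is a CIN-type TCP transcription factor of leaf and cotyledon development. The genes described here are the protein-coding nuclear genes with the symbol or synonym BBX2 to BBX32 in the gene table. CO (CONSTANS, BBX1) was left out by this rule. Of 31 names, 30 had a match among 27444 protein-coding nuclear genes, and BBX11 had none. The match for BBX23 was a symbol written in lower case.

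Binding sites of TCP4 were mapped by chromatin immunoprecipitation with sequencing (ChIP-seq) in whole Arabidopsis thaliana seedlings. The TCP4 overexpression seedlings are labelled mTCP4 and the wild-type seedlings Col. After 3 days of stratification at 4 °C and 3 to 4 h of white light, both genotypes grew for 4 days in darkness. Each genotype had 1 ChIP library made with an anti-Myc antibody and 1 input library made without antibody, so 4 libraries were made with no replicate in any group. The labels name neither the promoter that drives TCP4 nor its tag. The anti-Myc signal comes from seedlings that overexpress TCP4, so it need not match binding at the native level of TCP4.

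A single deposited peak list of mTCP4 against Col held 7470 summits, the positions of highest ChIP signal, in 6220 numbered peaks. Fold is the authors' own value for each summit, the linear ratio of the pileup of ChIP fragments to the control level at that position. A range in parentheses after a fold is its exact 95% Poisson interval, from the number of fragments counted. These intervals hold the control level fixed and leave out its own counting error. They cover the counting error of the ChIP fragments only, which is what counting error means below. Folds whose intervals overlap may still differ beyond counting error. With 1 library a group no test between genotypes or between genes was made. Over all summits the median fold was 3.43 and the range 1.67 to 16.4. The number of fragments behind a summit ran from 43 to 355, and from 47 to 226 at the B-box genes. A gene holds a summit here when the summit lies inside the gene or within 1000 bp outside it, and all coordinates are those of the deposited list, in build TAIR10. The gene table gives no strand, so gene ends are called lower and higher by coordinate, and upstream was not told apart from downstream.

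Of the 30 B-box genes, 18 (60%) held at least 1 summit, against 19.7% of all protein-coding genes. Another measure, 2 or more summits, was met by 12 B-box genes (40%) against 5.6% of all genes, and 3 or more by 6 (20%) against 1.47%. Summits of the same numbered peak count separately here, for B-box genes and for all genes. The 2 summits of BBX7 share a numbered peak, as do those of BBX15. Among the 6 genes with 3 summits, only BBX9 had them in different numbered peaks. A highest fold of 5 or more was listed for 7 B-box genes (23.3%), against 4.88% of all genes. These shares describe a chosen family of genes and are not a test. B-box genes were not long for Arabidopsis, with a median length of 1816 bp (642 to 2968 bp) against 2078 bp for all protein-coding genes. The members that held a summit had a median length of 1784 bp and those that held none 1870 bp.

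The family split into genes with a summit close by and genes with none near. The same number, 18, was counted with a reach of 500 bp and with a reach of 2000 bp, while the share over all protein-coding genes was 14.8% at the first and 26.5% at the second. All 18 had a summit outside the gene within 1000 bp, a rule met by 15.3% of all genes. Among the other 12 the nearest summit lay between 2528 and 42104 bp away. Of these 12, BBX12, BBX21 and BBX25 had a summit within 5000 bp, so that 21 of the 30 genes (70.0%) had one at that reach against 43.9% of all genes.

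**Figure D1:**
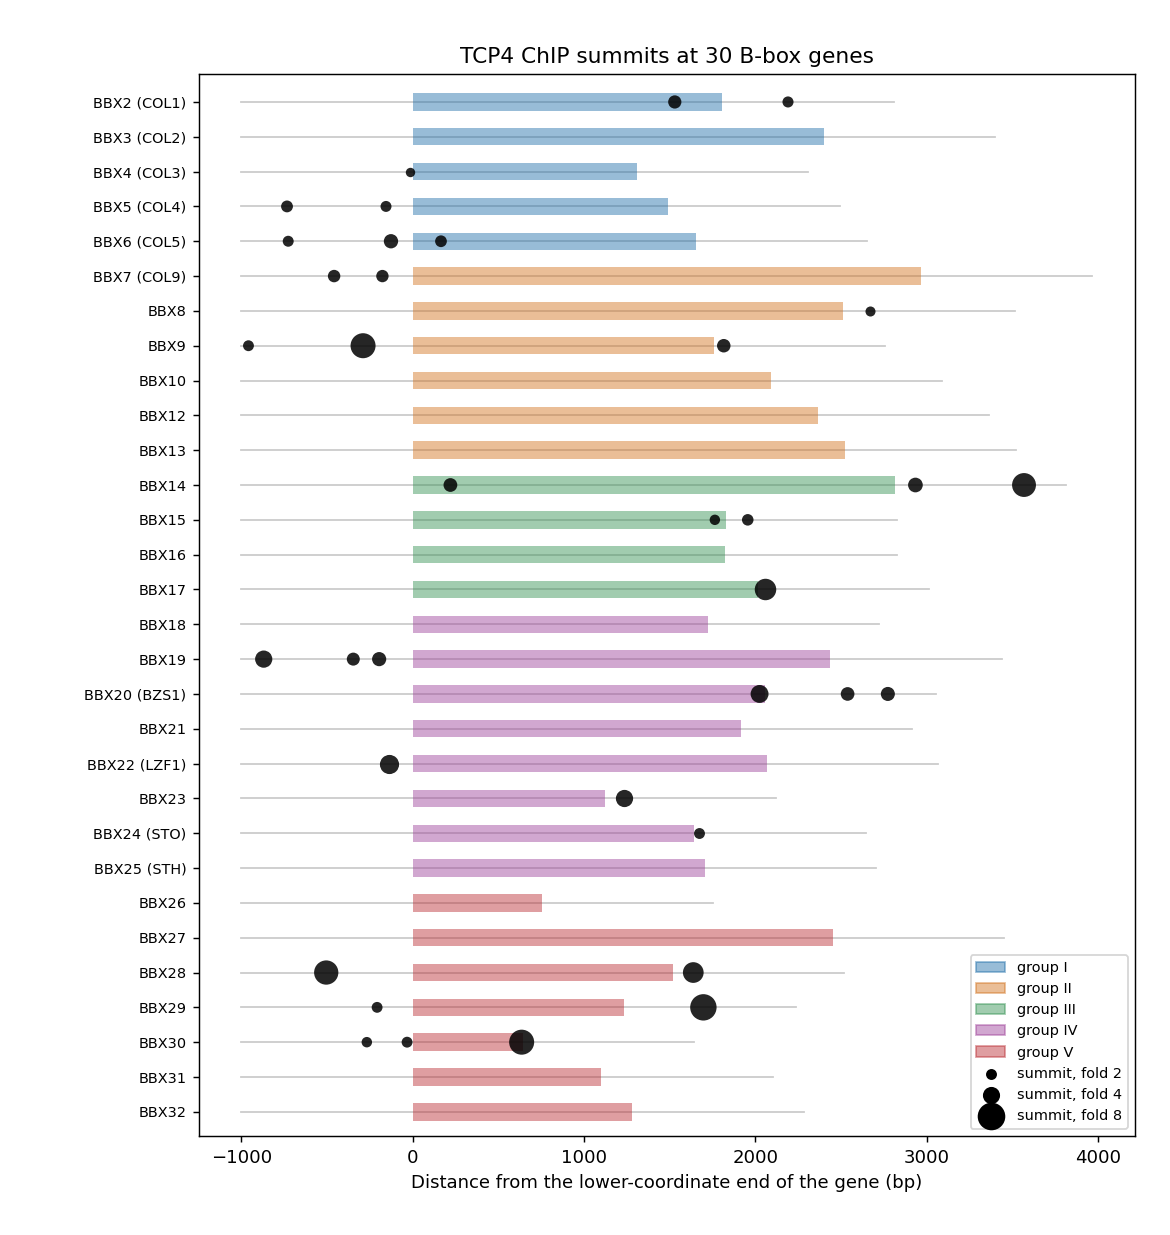
Map of the 30 B-box genes, drawn to scale from the lower-coordinate end of each gene (x axis, bp), with the gene as a coloured bar, the 1000 bp on either side as a line and each summit as a black circle whose area grows with fold. In 18 genes summits sit at or beyond a gene end, with the 6 inside a gene 5 to 276 bp from an end, and 12 genes hold none.

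The 18 genes held 34 distinct summits. Because 2 of these count for a pair of neighbouring members, there were 36 combinations of gene and summit. Of the 36, 30 lay outside the gene and 6 inside it. Those inside were all near an end, from 5 to 276 bp from it. Outside, 15 of 30 (50.0%) were within 200 bp of the gene, and the median distance was 202 bp. For all protein-coding genes 28.3% of the outside combinations were within 200 bp and the median distance was 426 bp. Summits inside the gene made up 16.7% of the combinations for B-box genes and 30.2% for all genes. A summit inside the gene was held by 6 B-box genes (20%), against 6.75% of all genes.

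The fold of a single summit was ordinary for the list. The 34 summits had a median fold of 3.33 with a range of 2.08 to 8.26, beside the median of 3.43 over all summits, and 16 of the 34 were above that median. A fold of 5 or more was listed for 20.6% of them and for 21.3% of all summits. Taken per gene, the highest fold had a median of 4.68 over the 18 B-box genes and of 3.60 over all genes that held a summit. These medians compare genes that hold different numbers of summits.

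**Figure D2:**
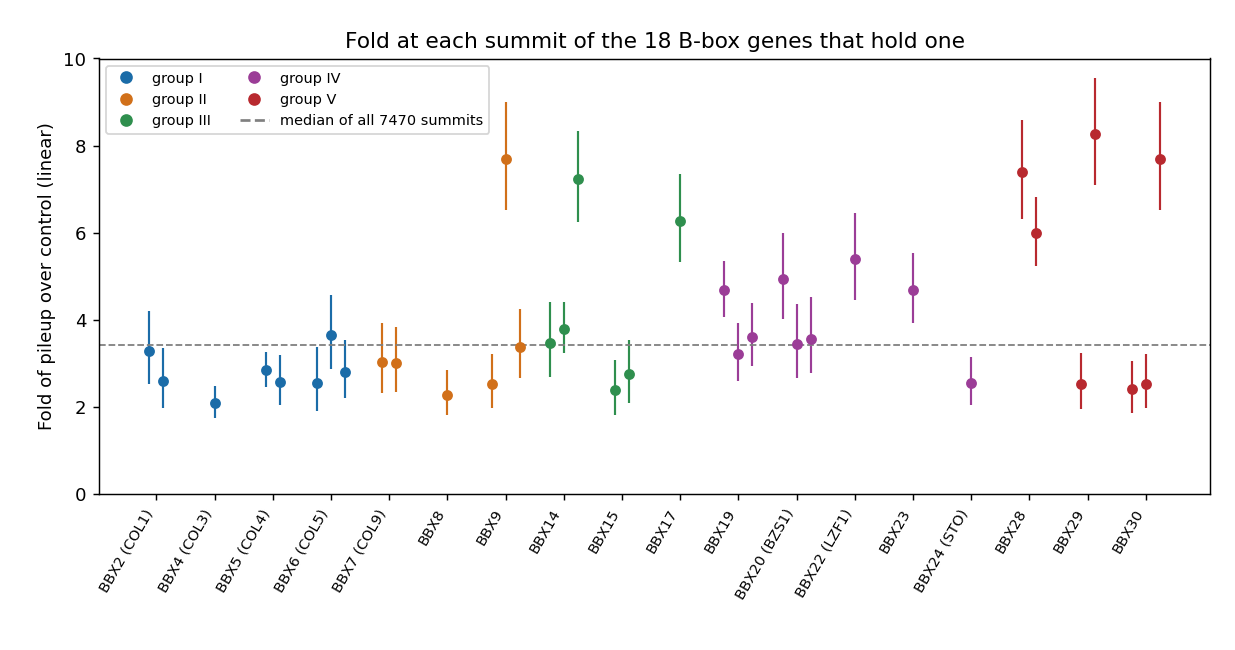
Fold at each summit (y axis, linear, no unit) for the 18 B-box genes that hold one (x axis), coloured by structure group, with bars for the exact 95% Poisson interval of the fragment count and a dashed line at the median of all summits, 3.43. All group I summits reach at most 3.65, while BBX28, BBX29 and BBX30 of group V each reach above 7.

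B-box proteins are sorted into 5 structure groups. Groups I and II have 2 B-boxes and a CCT domain, with a further short motif in group I, and group III has 1 B-box and a CCT domain. Group IV has 2 B-boxes and group V has 1, both without a CCT domain. Members with a summit numbered 4 of 5 in group I (80.0%), 3 of 6 in group II (50.0%), 3 of 4 in group III (75.0%), 5 of 8 in group IV (62.5%) and 3 of 7 in group V (42.9%). Each share was above the 19.7% of all protein-coding genes, and with 4 to 8 genes a group the order among groups rests on single genes. By domain, 10 of 15 genes with a CCT domain and 8 of 15 without one held a summit.

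The highest fold per gene was below 4 throughout group I and above 7 at each group V gene with a summit. Group I had a highest fold per gene of 2.08 to 3.65, with 0 of 4 genes at 5 or more. Group V ran from 7.38 to 8.26, with 3 of 3 at 5 or more. These values depend on the reach, since with summits outside the gene only BBX30 had a highest fold of 2.53, and within 500 bp BBX28 had 5.98. The counting intervals of the highest summits of group V genes began at 6.32, above the end of every interval in group I at 4.58. Groups II, III and IV lay between or across these ranges, at 2.28 to 7.69, 2.75 to 7.23 and 2.55 to 5.39. Of the 7 genes at 5 or more, 5 were among the 11 genes with 1 B-box and 2 among the 19 with 2 B-boxes. Both of the latter reached this value only through a summit inside a neighbour, BBX9 through BBX30 and BBX22 through NADK3. Among the former, BBX14 reached it through a summit nearer to AT1G68526.

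Group I holds the close relatives of CO. BBX6 (COL5, AT5G57660), which promotes flowering when overexpressed, had 3 summits on chromosome 5. They lay 727 bp and 127 bp outside its lower end, at positions 23354610 and 23355210, and 165 bp inside it at position 23355502. Their folds were 2.56 (1.90 to 3.38), 3.65 (2.88 to 4.58) and 2.81 (2.20 to 3.53). The intervals of the 3 summits overlapped, and whether their folds differ was not tested.

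BBX2 (COL1, AT5G15850) lies next to CO on chromosome 5. It had a summit inside the gene, 276 bp from its higher end at position 5177621, where the fold was 3.29 (2.54 to 4.20). A second summit 385 bp beyond that end, at position 5178282, had a fold of 2.60 (1.97 to 3.36) and lay inside the neighbours AT5G15853 and PCME. On the side facing CO no summit lay within 1000 bp of BBX2. The nearest there, at position 5174047, was 962 bp from CO and 2044 bp from BBX2, where the fold was 4.41 (3.52 to 5.46).

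BBX5 (COL4, AT5G24930), a repressor of flowering, had summits 734 and 156 bp outside its lower end, at positions 8588723 and 8589301 of chromosome 5. Folds there were 2.84 (2.46 to 3.26) and 2.56 (2.04 to 3.19). BBX4 (COL3, AT2G24790), a positive regulator of photomorphogenesis that binds COP1, had 1 summit just 17 bp outside its lower end at position 10566819 of chromosome 2. Its fold of 2.08 (1.74 to 2.48) was the lowest of the 34. AT2G24780 lay 637 bp from this summit. BBX3 (COL2, AT3G02380), the closest homologue of COL1 in this group, had none, and the nearest summit was 19251 bp away.

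A high pileup stood beside a high control level at the BBX4 summit and at 1 of the BBX5 summits. At BBX5 the farther summit had a pileup of 143.7 scaled fragments over a control level of 50.0, and at BBX4 the pileup was 90.6 over 43. Over the 34 B-box summits the median pileup was 56.7 and the median control level 16.9, so both summits were high in ChIP and in control. The nearer BBX5 summit, with the lower fold of that gene, had a pileup of 57.5 over a control level of 21.8. These 2 control levels were the highest at any B-box gene. The part of the control level in these folds was not tested. The highest pileup of the family, 166.5 scaled fragments over a control level of 27.0, was at BBX28. Next came BBX19 with 153.3 over 32.

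**Figure D3:**
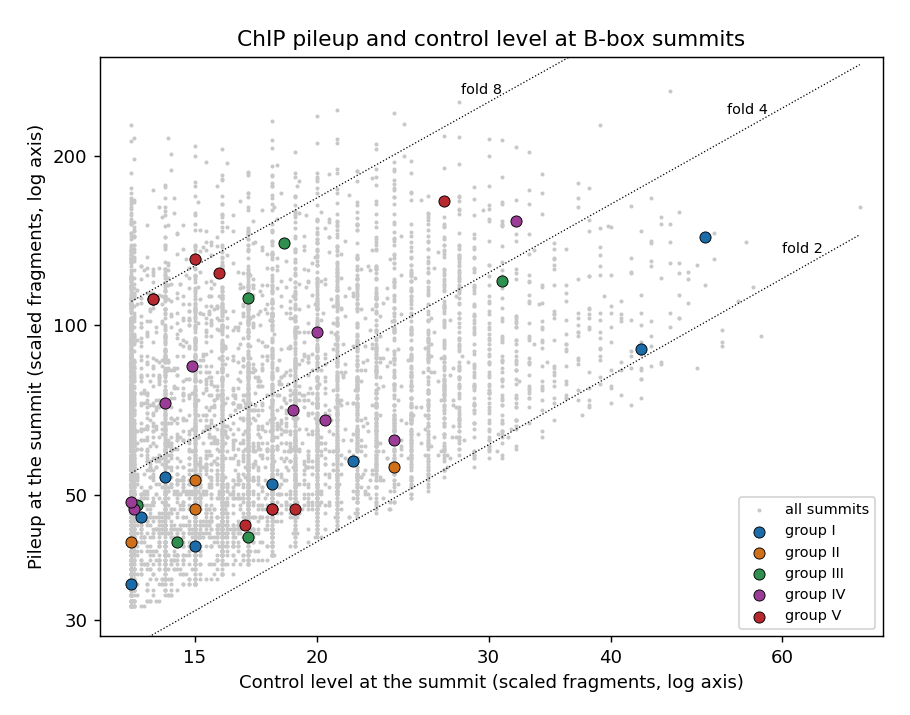
Pileup (y axis, scaled fragments, log axis) against control level (x axis, scaled fragments, log axis) for all summits in grey and for B-box summits by structure group, with dotted lines of equal fold. The group I points at control levels of 43 and 50.0 have pileups of 90.6 and 143.7 but lie between the lines for folds of 2 and 4, and the 2 summits that BBX9 shares with BBX30 are drawn in the colour of group V.

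In group II, BBX7 (COL9, AT3G07650), which delays flowering, had a numbered peak with 2 summits, 459 and 177 bp outside its lower end at positions 2441106 and 2441388 of chromosome 3. Folds were 3.04 (2.31 to 3.92) and 3.01 (2.33 to 3.83), equal within counting error. BBX8 (AT5G48250) had 1 summit 159 bp beyond its higher end, at position 19563991 of chromosome 5, where the fold was 2.28 (1.81 to 2.84). AT5G48270 lay 431 bp from this summit. BBX10, BBX12 and BBX13 held none, and their nearest summits were 39528, 3643 and 12348 bp away.

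BBX9 (AT4G15250) of group II and BBX30 (AT4G15248) of group V are neighbours on chromosome 4 with 284 bp between them. Protein BBX30 is a small B-box protein, a microProtein that joins CO to the corepressor TOPLESS and thereby delays flowering. A summit at position 8709477 had a fold of 7.69 (6.52 to 9.01) and lay inside BBX30, 5 bp from its higher end and 290 bp from BBX9. It is the highest summit of both genes. BBX30 had lower summits on its other side, 33 and 268 bp outside its lower end at positions 8708808 and 8708573, with folds of 2.53 (1.96 to 3.22) and 2.41 (1.87 to 3.06). The intervals of these did not reach that of the summit at the higher end. BBX9 had a summit of its own 57 bp beyond its higher end at position 8711583, where the fold was 3.38 (2.66 to 4.24).

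BBX31 (AT3G21890), the other microProtein of this kind, also has a group II gene as its neighbour, BBX10 on chromosome 3, with 486 bp between the genes. Neither held a summit. The nearest one was 39528 bp from BBX10 and 42104 bp from BBX31, where the fold was 2.13 (1.72 to 2.60). Both pairs join a group II gene to a group V gene, and they differ in the peak list.

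Group V held the highest folds of the family. BBX29 (AT5G54470) had a summit 462 bp beyond its higher end, at position 22116001 of chromosome 5, where the fold was 8.26 (7.10 to 9.56). On its other side, 208 bp outside the lower end at position 22114096, the fold was 2.53 (1.94 to 3.24). BBX28 (AT4G27310), which interferes with DNA binding by HY5, had strong summits on either side. One lay 505 bp outside the lower end at position 13675032 of chromosome 4, where the fold was 7.38 (6.32 to 8.58). The other lay 120 bp beyond the higher end at position 13677175, where the fold was 5.98 (5.23 to 6.81). These intervals overlapped, whereas those of the 2 BBX29 summits were far apart.

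No other protein-coding gene lay within 1000 bp of the summits at BBX28 and BBX29. Summits outside both ends were held by 3 B-box genes, BBX9, BBX28 and BBX29 (10%), against 0.977% of all protein-coding genes. The remaining group V genes, BBX26, BBX27, BBX31 and BBX32, held none, with nearest summits 6477 to 42104 bp away. Among them, BBX32 represses light responses and binds BBX21.

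In group III, BBX14 (AT1G68520) had 3 summits on chromosome 1. A summit inside the gene, 220 bp from its lower end at position 25708395, had a fold of 3.47 (2.69 to 4.40) and lay inside the overlapping gene LBD42 as well. Beyond the higher end, summits at 121 and 755 bp, positions 25711110 and 25711744, had folds of 3.79 (3.23 to 4.41) and 7.23 (6.25 to 8.33). The highest of the 3 was 125 bp from AT1G68526, nearer than BBX14, and 670 bp from KCS6. Counting every summit for its nearest gene alone, the highest fold of BBX14 was 3.79.

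BBX17 (AT1G49130) had 1 summit 39 bp beyond its higher end, at position 18176428 of chromosome 1, where the fold was 6.28 (5.33 to 7.35). AT1G49140 lay on the other side of that summit at 344 bp. BBX15 (AT1G25440) had a peak with 2 low summits at its higher end, 64 bp inside and 128 bp outside it, at positions 8935480 and 8935672 of chromosome 1. Their folds were 2.39 (1.82 to 3.08) and 2.75 (2.09 to 3.54), so the best summit of BBX15 was below that of BBX17 beyond counting error. It was also below the 7.23 listed for BBX14, at the summit nearer to AT1G68526. With nearest genes only, the 3.79 (3.23 to 4.41) of BBX14 had an interval that overlapped that of BBX15. BBX16 (COL7, AT1G73870), which acts in branching and shade responses, had no summit within 10696 bp.

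Group IV contains several of the B-box factors that act directly on seedling de-etiolation. Among those that promote it, BBX22 (LZF1, AT1G78600), a partner of HY5, had the highest fold, 5.39 (4.46 to 6.46), at position 29566724 of chromosome 1. This summit was 139 bp outside the lower end of BBX22 and inside the neighbouring gene NADK3, and with nearest genes only BBX22 held none. BBX20 (BZS1, AT4G39070), a brassinosteroid-repressed factor, had 3 summits at its higher end on chromosome 4. They lay 28 bp inside the gene and 486 and 721 bp outside it, at positions 18206656, 18207170 and 18207405, with folds of 4.93 (4.02 to 5.99), 3.44 (2.67 to 4.37) and 3.57 (2.77 to 4.52). BBX23 (AT4G10240), another partner of HY5, had a summit 112 bp beyond its higher end at position 6370062 of chromosome 4, where the fold was 4.68 (3.92 to 5.54). The heat shock gene ATHSP22.0 was 276 bp from it.

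BBX21 (AT1G75540), which promotes HY5 expression and activity, held no summit. The nearest was 2528 bp outside its lower end, at position 28363296 of chromosome 1. Its fold of 9.48 (8.33 to 10.7) was higher than that of any summit inside the reach of a B-box gene. Its interval overlapped those of the highest summits at BBX28, BBX29 and BBX30, the last shared with BBX9. AT1G75530 was nearer than BBX21 to position 28363296, at 1481 bp, so that position lay more than 1000 bp from every protein-coding gene.

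Group IV also holds factors that act against de-etiolation. BBX19 (AT4G38960), which promotes hypocotyl growth in seedlings, had 3 summits outside its lower end on chromosome 4, at 196, 347 and 870 bp and positions 18160707, 18160556 and 18160033. Folds were 3.61 (2.93 to 4.39), 3.21 (2.60 to 3.93) and 4.67 (4.07 to 5.35), and the last summit lay inside AT4G38950. BBX24 (STO, AT1G06040), which restrains HY5, had a summit 29 bp beyond its higher end at position 1830012 of chromosome 1, where the fold was 2.55 (2.04 to 3.14). AT1G06045 and AT1G06050 lay 147 and 459 bp from this summit. BBX18 and BBX25 held none, and their nearest summits were 6325 and 3609 bp away. Summits were thus listed at factors known to promote de-etiolation and at factors known to oppose it.

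Of 9 pairs of related B-box genes, 4 had a summit at both genes and 5 at only 1 of them. With 60% of all members holding a summit, these counts are given as a description and say nothing particular of related genes. Both genes held a summit in BBX4 and BBX5, BBX7 and BBX8, BBX14 and BBX15, and BBX28 and BBX29. Only the member named first did in BBX2 and BBX3, BBX17 and BBX16, BBX19 and BBX18, BBX24 and BBX25, and BBX30 and BBX31. Among the pairs with both, the highest folds of BBX14 and BBX15, 7.23 and 2.75, had intervals apart. With nearest genes only, BBX14 had 3.79 and the intervals of this pair overlapped. The highest folds of BBX28 and BBX29, 7.38 and 8.26, had intervals that overlapped. By chromosome, 5 of 10 members on chromosome 1, 1 of 4 on chromosome 2, 1 of 5 on chromosome 3, 6 of 6 on chromosome 4 and 5 of 5 on chromosome 5 held a summit. The shares of all protein-coding genes were 19.5%, 18%, 20.5%, 19.9% and 20% in the same order.

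Some summits lay near other genes too. Of the 34 summits, 16 lay within 1000 bp of another protein-coding gene as well, and 30 had a B-box gene as their nearest gene. With nearest genes only, 17 of 30 members held a summit, against 15.3% of all genes. Under that rule the members with a highest fold of 5 or more fell in number from 7 to 4, against 3.73% of all genes. Those lost were BBX9, whose highest fold became 3.38, BBX14, at 3.79, and BBX22, which held no summit. With only the highest summit of each numbered peak 18 members held one, against 19.4% of all genes, and at a −log10 q of at least 10 there were 12, against 14.1%. The rule of the upper 50% of summits by fold left 11, against 10.7% of all genes.

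**Figure D4:**
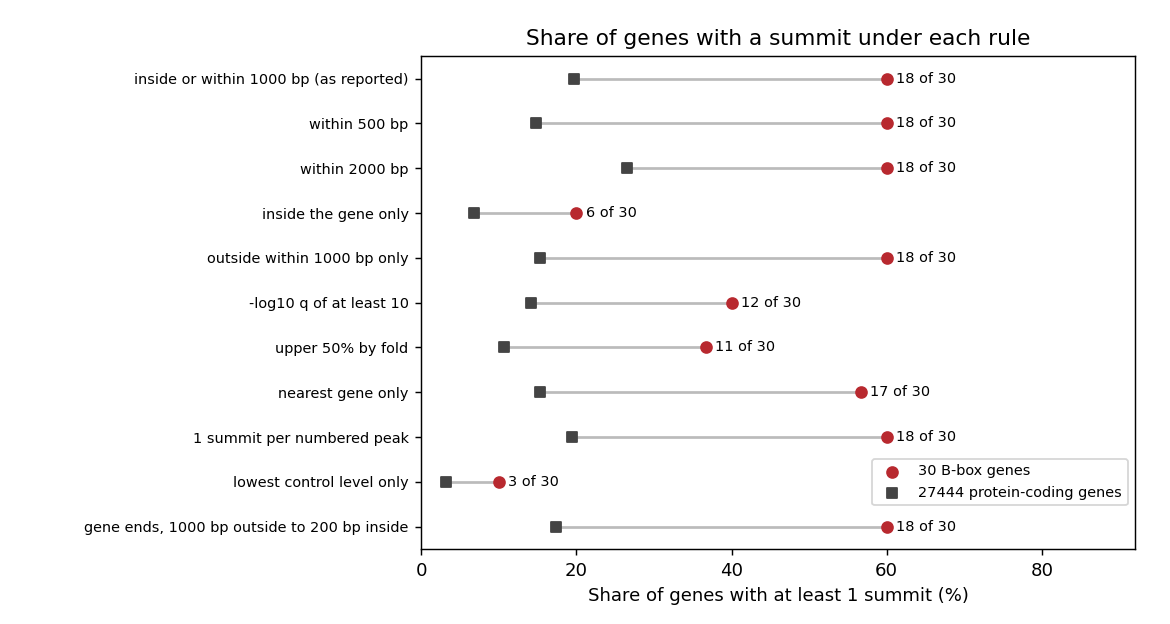
Share of genes with at least 1 summit (x axis, %) under the rule of the text and 10 other rules (y axis), for the 30 B-box genes (red circles, with their counts) and for all 27444 protein-coding genes (dark squares). The B-box share is 60% with reaches of 500, 1000 and 2000 bp and 10% with the lowest control level only, where all genes are at 3.17%.

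Other genes of the pathway were taken from a list of 21 light signalling genes, of which 11 (52.4%) held a summit, against 19.7% of all protein-coding genes. Their highest folds had a median of 3.85, and 4 of the 21 reached 5 or more, against 4.88% of all protein-coding genes. HY5 and COP1, which many B-box proteins bind, held no summit. SPA2, SPA3, CRY1, FT, FHY3, FAR1, GLK2 and PIF1 held none either. HYH, the homologue of HY5, had a summit 51 bp outside the gene with a fold of 3.22 (2.59 to 3.96). SPA1 and SPA4, which act with COP1, reached 3.85 (3.05 to 4.79) and 5.05 (4.20 to 6.02). GLK1, a regulator of chloroplast genes, reached 5.33 (4.70 to 6.03). PIF3 reached 4.63 (3.90 to 5.47) at the highest of its 3 summits. The phytochrome-interacting factors PIF4 and PIF5, growth promoters of dark-grown seedlings, reached 6.53 (5.57 to 7.62) and 6.33 (5.54 to 7.20), below BBX29 in value but with intervals that overlapped. The photoreceptors PHYB, at 2.21 (1.74 to 2.78), and CRY2, at 2.24 (1.86 to 2.67), and the bHLH factor HFR1, at 2.32 (1.81 to 2.93), were below the median of all summits. The interval of PHYA, at 3.28 (2.78 to 3.84), included that median.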

How the data were processed

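The submitters' processing notes list Bowtie 0.12.9, MACS2 2.1.1 and build TAIR10, without the calling threshold or the library that served as control. Per the file headers, the deposited list gives for each summit the pileup (a signal in scaled fragments), the fold (a ratio of pileup to control level) and p-values and q-values as −log10. The positions are used as deposited. In 7469 cases the interval spans 5000 bp on either side and so does not measure peak width.

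The control level was computed from pileup and fold with the pseudocount of 1 of MACS2. All pileups were multiples of 0.737 within 0.01, taken as 1 fragment each, which gave the Poisson intervals (scipy 1.17.1). With these levels, 100% of the deposited p-values were recovered within 0.05 on the −log10 scale. Library totals were not analysed here.

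Gene names, ends and distances were taken from the RefSeq table of genes for TAIR10.1, whose coordinates are not printed. The steps were tested on simulated data. All members are named whatever their values, with CO and the light signalling list, and the genes that share a summit. The domain structure of each group is background knowledge, not read from sequence. The members, groups and lists were chosen with earlier results of these data known. Planned sequence searches were not run, since no sequence was used here.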

Additional observations from a re-analysis of the deposited data

How the results depend on the processing

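The share of B-box genes with a summit was above that of all protein-coding genes under each of the 10 other rules, with 3 to 18 of 30 genes. A window from 1000 bp outside to 200 bp inside either gene end was chosen after seeing the data and also gave 18, against 17.4% of all genes. Counts within 1.5 times of those reported are not listed below, except the 12 members at a −log10 q of at least 10. With summits inside the gene only, 6 members were left, against 6.75% of all genes, with 2 in group I, 0 in group II, 1 in group IV and 1 in group V. With a −log10 q of at least 10, 12 members were left, against 14.1% of all genes, with 2 in group I and 1 in group II. The upper 50% of summits by fold left 11 members, against 10.7% of all genes, with 1 in group I and 1 in group II. Summits at the lowest control level left 3 members, against 3.17% of all genes. By group they were 1 in group I, 1 in group II, 0 in group III, 1 in group IV and 0 in group V. Their highest fold was 3.57 in place of 8.26. Each of these rules leaves fewer summits by construction. Of 139 highest folds of single genes under the other rules, 127 stayed within the counting interval of the reported value and 12 did not. These 12 were at BBX6, BBX9, BBX14, BBX19, BBX20, BBX28 and BBX30. The 127 do not measure how stable the folds are, since genes that lost every summit under a rule are not among the 139. The upper 50% by fold also keeps the highest summit of each gene it retains, so its 11 values could not move. No paired analysis was possible because each group had 1 library. With about 77 fragments at the median B-box summit, folds such as those of BBX7's summits could not be told apart, and differences between seedling batches were not measured.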

Other observations

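Farther out, between 1000 and 5000 bp from the gene, 22 summits lay near 13 B-box genes, and 20 of them were not within 1000 bp of any B-box gene. The median fold of the 22 was 3.21. Around BBX6 (COL5) there were 4 of these besides the 3 summits at the gene, at 4777 and 2872 bp on the lower side and 1352 and 2613 bp on the higher side. Their folds were 3.57 (2.77 to 4.52), 6.40 (5.44 to 7.48), 2.70 (2.19 to 3.30) and 4.60 (3.97 to 5.31). The summit at 2872 bp, position 23352465 of chromosome 5, was thus higher than every summit within 1000 bp of BBX6, and its nearest gene was AT5G57655 at 2400 bp. BBX20 (BZS1) had a summit of 6.70 (5.80 to 7.70) at 2233 bp, 482 bp from VHA-A3, which was above its own highest fold of 4.93, with intervals that overlapped.

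BBX25 (STH), which held no summit within 1000 bp, had summits 3609 bp from its lower end with a fold of 5.17 (4.28 to 6.19) and 3733 bp from its higher end with a fold of 3.77 (3.09 to 4.55). The first lay 771 bp from AT2G31370 and the second inside GUN1, a gene of chloroplast-to-nucleus signalling. BBX22 (LZF1) had 4 summits from 3364 to 4654 bp beyond its higher end, with folds of 2.01 to 4.34, of which 2 lay inside MSL6. These summits are given by distance only, and no gene was assigned to them.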
